A study of Mus musculus with 20 samples.

Results

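Dot1l encodes the histone H3 methyltransferase DOT1L, and 9 further genes encode proteins that bind it or share its partners in transcription elongation: Mllt1, Mllt3, Mllt6, Mllt10, Aff1, Aff3, Aff4, Ell and Ell2. These 10 genes were taken by symbol from a table of 22048 protein-coding genes, and all 10 were among the 13072 genes with enough counts to be tested. The RNA came from mouse CD4+ T cells, enriched out of spleen and peripheral lymph nodes. The 20 sequenced libraries form 10 groups of 2. KO cells came from CD4Cre+ mice with the DOT1L FL/FL allele, in which Cre is driven by the Cd4 promoter and deletes in the T-cell lineage, and WT cells came from CD4Cre+ mice, so that Cre was present in both genotypes. The labels do not give the age, sex or number of the mice, nor which exons the FL allele removes.

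The groups were KO and WT naive cells, KO and WT Th1 cultures, KO and WT Th2 cultures, and WT Th1 and WT Th2 cultures that received the compound SGC0946 or SGC0649 at 1 µM. Naive samples were the starting population. Cultures were stimulated for 4 days with anti-CD28 and anti-CD3 coated onto the plate, both at 1 µg/ml, and were then sorted for viable CD4+ cells. Th1 cultures held IL-2 and IL-12 (10 ng/ml each) with anti-IL-4 (10 µg/ml), and Th2 cultures held IL-2 and IL-4 (10 ng/ml each) with anti-IFN-g (10 µg/ml). SGC0946 is known as an inhibitor of DOT1L, and SGC0649 as its control compound.

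DOT1L methylates a lysine on the surface of the nucleosome core, a mark found along the bodies of transcribed genes. MLLT1 and MLLT3 carry YEATS domains that read acylated histones and can bind either DOT1L or the AFF scaffolds, and MLLT6 and MLLT10 are PHD-finger proteins that bind DOT1L. AFF1 and AFF4 are scaffolds of the super elongation complex, which holds the kinase P-TEFb and an ELL-family factor and releases paused RNA polymerase II. AFF3 is the AFF family member first described in lymphoid tissue. In T cells DOT1L is best known for restraining Th1 gene expression.

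Protein-coding counts per library lay between 9704500 and 13025588, and levels are given as CPM (counts scaled to library size, protein-coding genes) after TMM scaling, with factors of 0.878 to 1.08. The factors differed by group: 0.878 in both KO Th2 libraries, 1.08 in both KO Th1 libraries and 0.980 to 0.997 in WT cultures without compound. Compared with CPM on plain totals, without this scaling, levels were thus higher in KO Th2 and lower in KO Th1 libraries. The Cd4 transcript itself had 409 and 398 CPM in KO naive cells, against 981 and 989.6 CPM in WT naive cells, and was also lower in KO cultures, at 157 to 212 CPM, than in WT cultures without compound, at 543 to 1049 CPM. Cd3e, a subunit of the T-cell receptor complex, had 164 CPM or more in all 20 libraries. Its level was below WT in KO naive and KO Th1 libraries and above WT in KO Th2 libraries. Trac, another T-cell receptor gene, had 526 and 599 CPM in KO naive cells, against 887 and 979 CPM in WT naive cells. In cultures without compound it was also lower in KO. Trac had 143 and 145 CPM in KO Th1 against 550 and 592 CPM in WT Th1, and 87.3 and 88.4 CPM in KO Th2 against 249 and 267 CPM in WT Th2. The labels do not say whether the 2 libraries of a group came from separate mice, so the p-values measure only the spread between these libraries. Whether the libraries of 2 groups overlap is given as a description. With 2 libraries against 2, a permutation test could reach a 2-sided p no lower than 0.333. In such bulk RNA, fewer cells of a type and less RNA per cell cannot be told apart.

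The upstream windows of 3 members are printed: Aff3, which varied most between groups, Ell2, which rose in KO cells of all 3 states, and Dot1l, the gene deleted. Each window is the 250 bases before the RefSeq start site on GRCm38.p6, read 5′ to 3′ on the gene's strand, and none of the 3 windows lies in an exon of its gene in the counted annotation. They lie at chr10:80754953-80755202 (+) for Dot1l, chr1:38627245-38627494 (−) for Aff3 and chr13:75707234-75707483 (+) for Ell2.
Dot1l: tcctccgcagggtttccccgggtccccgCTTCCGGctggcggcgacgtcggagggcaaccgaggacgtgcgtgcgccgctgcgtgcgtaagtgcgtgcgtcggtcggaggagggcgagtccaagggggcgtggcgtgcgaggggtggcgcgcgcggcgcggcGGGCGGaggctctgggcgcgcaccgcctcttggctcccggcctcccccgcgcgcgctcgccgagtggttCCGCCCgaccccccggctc
Aff3: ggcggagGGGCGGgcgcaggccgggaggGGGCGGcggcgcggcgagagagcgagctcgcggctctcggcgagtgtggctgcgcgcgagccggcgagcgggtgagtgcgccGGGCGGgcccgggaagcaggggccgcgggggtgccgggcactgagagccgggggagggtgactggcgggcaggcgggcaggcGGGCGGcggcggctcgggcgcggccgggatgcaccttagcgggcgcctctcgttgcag
Ell2: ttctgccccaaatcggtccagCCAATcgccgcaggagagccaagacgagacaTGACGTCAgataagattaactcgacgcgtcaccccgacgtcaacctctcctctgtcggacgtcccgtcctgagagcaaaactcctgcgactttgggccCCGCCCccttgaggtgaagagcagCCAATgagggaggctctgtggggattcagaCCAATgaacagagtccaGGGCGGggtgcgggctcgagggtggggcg
Capitals mark matches on either strand to any of 8 motifs searched: the GC box (GGGCGG), the CCAAT box (CCAAT), the cAMP response element (TGACGTCA), the TATA box (TATAAA), the E-box (CACGTG), the STAT motif (TTCNNNGAA), the AP-1 motif (TGANTCA) and the ETS motif (CCGGAAG). None of the matches printed here overlaps a match to another motif. Among 32817 RefSeq windows of this length, the GC box was in 32.7%, the CCAAT box in 33.8%, the cAMP response element in 1.55%, the TATA box in 12.4%, the E-box in 6.02%, the STAT motif in 7.01%, the AP-1 motif in 6.75% and the ETS motif in 6.90%. The Aff3 window held 4 GC boxes and no other match, the Ell2 window held 2 GC boxes, 3 CCAAT boxes and 1 cAMP response element, and the Dot1l window held 2 GC boxes and 1 ETS match. CpG dinucleotides numbered 44 in the Dot1l window, 41 in the Aff3 window and 19 in the Ell2 window, against a median of 6 over all windows. The RefSeq start of Aff3 lies 37711 bases inside the gene as the counted annotation draws it, so the start site used in these cells is not given by the counts.

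Across the 10 groups, the members differed widely in how much their RNA varied. Group means of Aff3 spanned 61.5-fold, those of Ell2 10.8-fold and those of Mllt3 7.72-fold. Aff4 spanned 3.53-fold, Aff1 3.23-fold, Mllt6 2.45-fold and Ell 2.20-fold. Mllt1, Dot1l and Mllt10 stayed within 1.79-fold, 1.76-fold and 1.59-fold. For Aff3 only 1 of the 9 neighbouring pairs in the order of groups had overlapping libraries, whereas for Dot1l and for Ell 7 of 9 did, so most steps in the order of Dot1l and Ell levels did not exceed the spread between libraries.

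**Figure D1:**
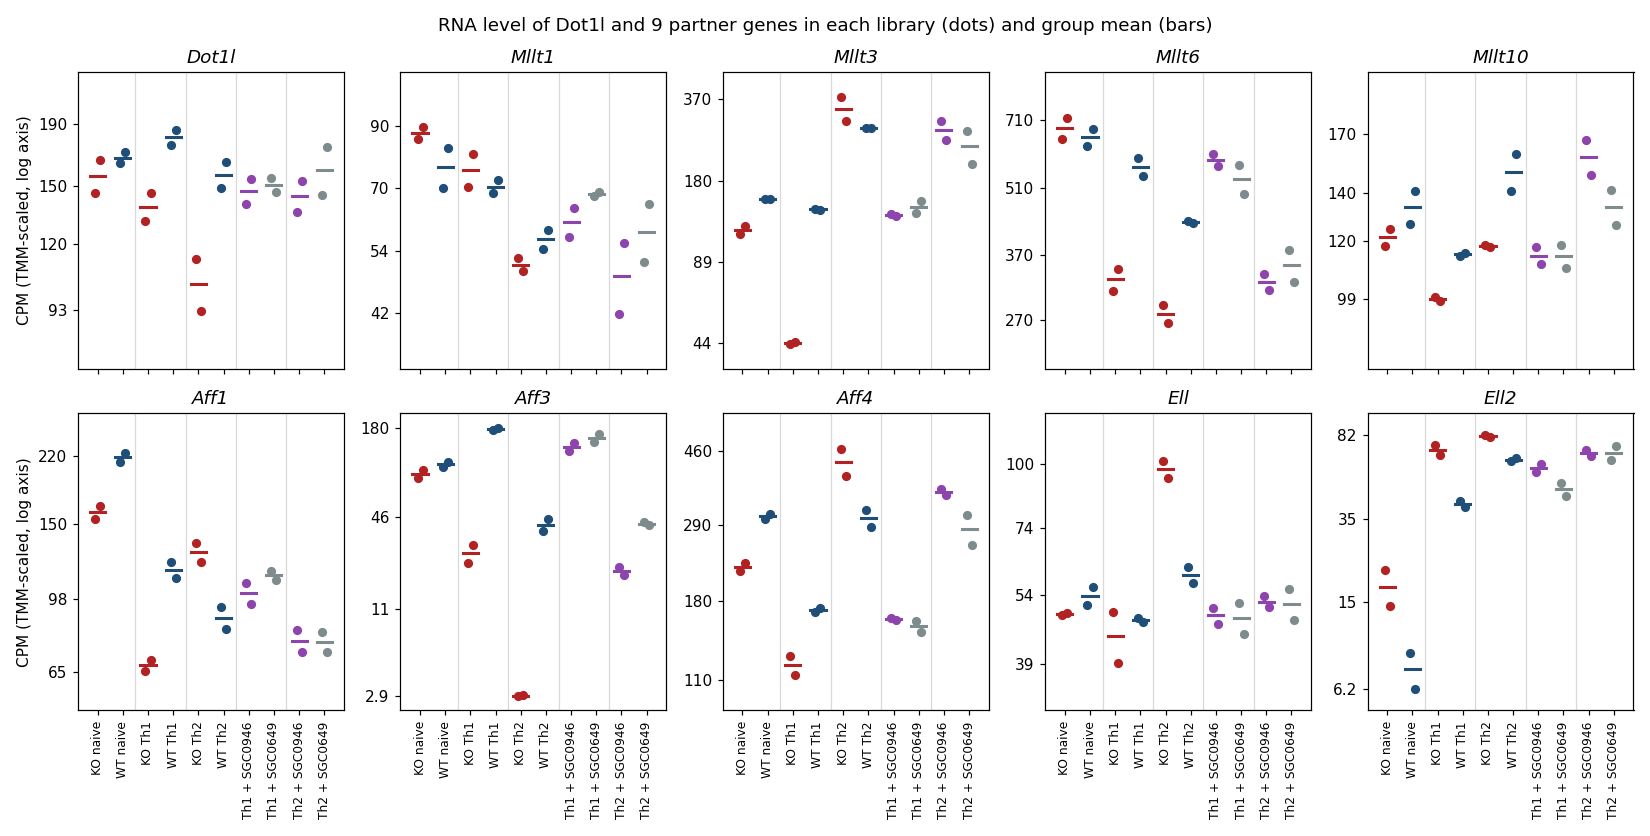
RNA level of each of the 10 genes in every library, in TMM-scaled CPM on a log axis whose range differs between panels; dots are libraries, bars are group means (n = 2), and groups labelled with a compound are WT cultures. Aff3 reached its lowest group mean, 2.90 CPM, in KO Th2 cultures and its highest, 178 CPM, in WT Th1 cultures, while the group means of Dot1l lay between 103 and 181 CPM.

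Members of the family moved in both directions in KO cells. In KO against WT naive cells, 1 member rose (Ell2) and 3 fell (Mllt3, Aff1, Aff4), where 28.4% of all genes tested were called in either direction. In Th1 cultures 1 rose (Ell2) and 6 fell (Dot1l, Mllt3, Mllt6, Aff1, Aff3, Aff4), against 50.6% of all genes. In Th2 cultures 4 rose (Aff1, Aff4, Ell, Ell2) and 4 fell (Dot1l, Mllt6, Mllt10, Aff3), against 53.4% of all genes. Calls are at an adjusted p under 0.05 in edgeR's quasi-likelihood F test with Benjamini-Hochberg adjustment over the 13072 genes, which also gave every adjusted p printed here. The median log2 fold change of the 10 members was -0.13 in naive cells, -0.44 in Th1 cultures and 0.05 in Th2 cultures, against 0.01, 0.01 and -0.01 over all genes. Their median absolute log2 fold change was 0.21, 0.64 and 0.52, against 0.28, 0.43 and 0.47 over all genes.

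**Figure D2:**
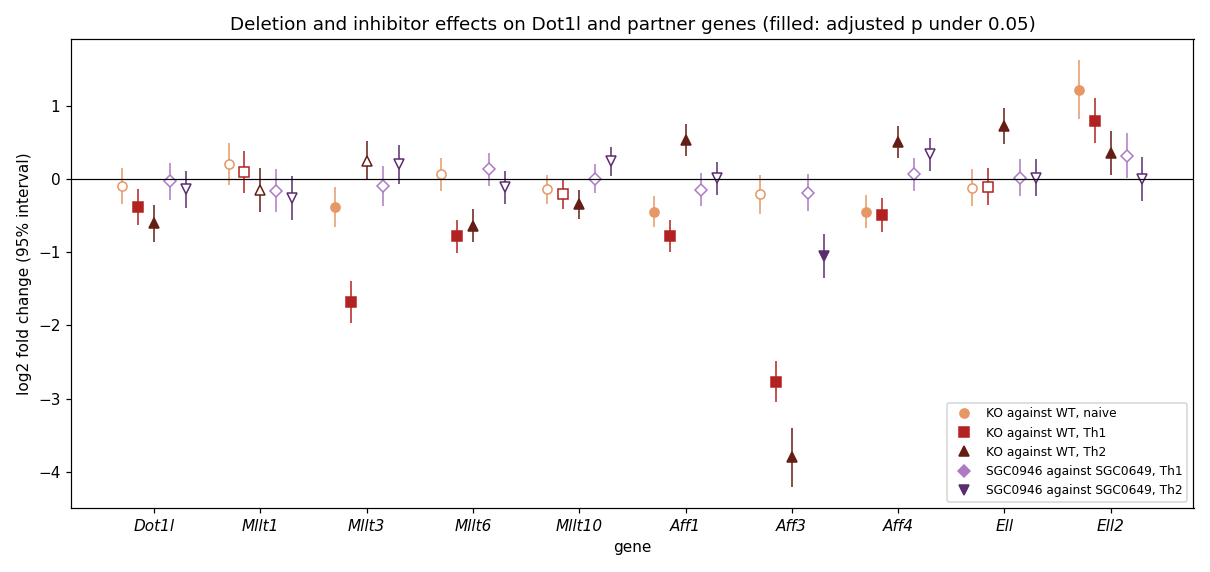
Log2 fold change of each gene with its 95% interval for KO against WT in 3 states and for SGC0946 against SGC0649 in 2 cultures (n = 2 libraries per group); filled symbols had an adjusted p under 0.05. Aff3 lies lowest, at -3.80 in Th2 and -2.77 in Th1 KO cultures, and is the only gene filled for the inhibitor.

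Several marker lists moved with genotype, among them those for non-T cells, for stress of handling and for the cell cycle, and their part in the results below was not tested. In KO against WT naive cells, 5 of 6 myeloid and dendritic markers rose, with summed levels of 413 to 867 CPM in KO and 256 to 334 CPM in WT libraries, and 4 of 6 erythroid markers rose, at 306 to 1257 CPM in KO and 195 to 304 CPM in WT libraries. Of 6 handling-stress genes 4 rose in KO naive cells, at 2339 to 2646 CPM against 1278 to 1449 CPM in WT, and 4 of 5 cell-cycle genes rose, at 451 to 505 CPM in KO and 188 to 226 CPM in WT libraries. Of 3 NK-cell markers 2 rose in KO naive cells, at 83.0 to 103 CPM against 55.4 to 67.0 CPM in WT. Mast-cell and basophil markers rose for 2 of 6, at 46.9 to 93.7 CPM in KO and 21.7 to 38.9 CPM in WT naive libraries. In Th1 cultures all 6 mast-cell and basophil markers rose, at 758 to 1809 CPM in KO and 111 to 151 CPM in WT libraries. Of the 3 NK-cell markers 2 rose in KO Th1 cultures, though the sums overlapped, at 154 to 222 CPM in KO and 169 CPM in each WT library. There 2 of 6 myeloid and dendritic markers rose, at 75.0 to 98.5 CPM in KO and 30.4 to 32.5 CPM in WT libraries, and of the 6 handling-stress genes 1 rose and 2 fell, at 232 to 245 CPM in KO and 355 to 418 CPM in WT libraries. The cell-cycle genes summed to 2369 to 2480.2 CPM in KO Th1 and 1738 to 1911 CPM in WT Th1 libraries, with 0 of 5 called by edgeR. In Th2 cultures both CD8 T-cell markers rose, at 130 to 267 CPM in KO and 13.05 to 16.2 CPM in WT libraries, 4 of 6 myeloid and dendritic markers rose, at 158 to 245 CPM in KO and 28.6 to 31.0 CPM in WT, and 4 of 5 cell-cycle genes fell, at 188 to 556 CPM in KO and 899 to 1234 CPM in WT. Of the handling-stress genes 1 rose and 3 fell in KO Th2 cultures, at 207 to 239 CPM in KO and 333 to 379.8 CPM in WT libraries. In KO Th2 cultures 1 of 3 NK-cell markers and 1 of 6 mast-cell and basophil markers rose. Of 6 erythroid markers 1 rose in KO Th1 cultures, at 6.84 to 8.82 CPM in KO and 0.248 to 0.679 CPM in WT. There 1 of 2 CD8 T-cell markers fell, though the sums overlapped, at 22.1 to 27.6 CPM in KO and 21.9 to 25.9 CPM in WT. Of 5 B-cell markers 1 rose in KO naive cells, at 15.9 to 31.4 CPM against 8.26 to 10.3 CPM in WT. In KO Th2 cultures 1 B-cell marker fell. The CD4 T-cell list, which includes Cd4, had 1 of 6 tested genes higher and 3 lower in KO naive cells, 1 higher and 4 lower in KO Th1, and 4 higher and 2 lower in KO Th2 cultures. In the comparisons named here, no marker of these lists was at 0 in both libraries of a group, with these exceptions. They were a second table entry under Itgam and, in KO and WT Th1 cultures, several erythroid genes.

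Dot1l (chromosome 10, 80755206 to 80795461, + strand) had 131 and 146 CPM in KO Th1 cultures, against 176 and 186 CPM in WT Th1 cultures. In Th2 cultures it had 113 and 92.5 CPM in KO, against 148 and 164 CPM in WT. Naive cells had 146 and 166 CPM in KO and 163 and 171 CPM in WT. The KO libraries lay below the WT libraries in both cultures and overlapped with them in naive cells. Dot1l fell by 0.39 on the log2 scale in Th1 (SE 0.11, adjusted p = 0.00841) and had a log2 fold change of -0.60 in Th2 (SE 0.11, adjusted p = 0.000269), and its naive log2 fold change was -0.10 with a 95% interval of -0.35 to 0.15. The Th1 call was lost without the KO Th1 replicate 1 library (adjusted p = 0.0893) or the WT Th1 replicate 2 library (adjusted p = 0.0605). Counts were summed over all exons, so the Dot1l level does not check the deletion.

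The YEATS-domain readers behaved differently from each other. Mllt3 (chromosome 4, 87769925 to 88033364, − strand) had 43.7 and 44.3 CPM in KO Th1 cultures, against 142 and 140.4 CPM in WT Th1 cultures. In Th2 cultures it had 375 and 305 CPM in KO, against 287 and 286 CPM in WT, and in naive cells 113 and 122 CPM in KO, against 154 CPM in each WT library. KO libraries were thus below WT in naive and Th1 samples and above WT in Th2 cultures, with no overlap in any of the 3 states after TMM scaling. On plain totals the Th2 libraries overlapped, at 329 and 268 CPM in KO and 281 and 285 CPM in WT. Mllt3 fell by 1.68 on the log2 scale in Th1 (SE 0.13, adjusted p = 2.89e-08) and had a log2 fold change of -0.39 in naive cells (SE 0.12, adjusted p = 0.0255), while its log2 fold change of 0.25 in Th2 missed the threshold (95% interval -0.02 to 0.51, adjusted p = 0.0931). The naive Mllt3 call did not survive leaving out KO naive replicate 1 (adjusted p = 0.175), WT naive replicate 1 (0.0913) or WT naive replicate 2 (0.106), and Mllt3 was called higher in Th2 without KO Th2 replicate 2 (adjusted p = 0.0229) and in a fit of the deposited table of all 47729 genes (adjusted p = 0.0490).

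Mllt1 (chromosome 17, 56892612 to 56935388, − strand), the paralog of Mllt3, passed the test in none of the 3 states. Its levels were 70.0 and 80.1 CPM in KO Th1 and 68.4 and 72.1 CPM in WT Th1 cultures, 52.5 and 49.8 CPM in KO Th2 and 54.6 and 58.8 CPM in WT Th2 cultures, and 85.2 and 89.6 CPM in KO naive and 69.8 and 82.2 CPM in WT naive cells. KO libraries lay above WT in naive cells, overlapped with WT in Th1 and lay below WT in Th2, in each case by small margins. Without TMM scaling the Th1 libraries of Mllt1 were separated, at 75.3 and 86.7 CPM in KO and 67.1 and 71.0 CPM in WT. The 95% intervals of its log2 fold change were -0.09 to 0.49 in naive cells, -0.19 to 0.38 in Th1 and -0.45 to 0.15 in Th2.

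The PHD-finger partners fell or did not pass the test. Mllt6 (chromosome 11, 97663414 to 97685463, + strand) had 311 and 346 CPM in KO Th1 cultures, against 591 and 541 CPM in WT Th1 cultures, and 290.0 and 267 CPM in KO Th2 cultures, against 436 and 431 CPM in WT Th2 cultures. Naive cells had 648 and 715 CPM in KO and 626 and 679 CPM in WT. All 4 KO cultures were below all 4 WT cultures, and the naive libraries of the genotypes overlapped after TMM scaling. Without that scaling the naive KO libraries lay above WT, at 698 and 753 CPM against 629 and 672 CPM. Mllt6 fell by 0.78 on the log2 scale in Th1 (SE 0.10, adjusted p = 7.99e-06) and had a log2 fold change of -0.64 in Th2 (SE 0.10, adjusted p = 4.74e-05), and its naive value was 0.06 (95% interval -0.16 to 0.28).

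Mllt10 (chromosome 2, 18055237 to 18212388, + strand), which helps DOT1L place higher methylation states, had 118 CPM in each KO Th2 library, against 141 and 159 CPM in WT Th2 cultures. It had 99.8 and 98.6 CPM in KO Th1 and 114 and 115 CPM in WT Th1 cultures, and 118 and 125 CPM in KO naive and 127 and 141 CPM in WT naive cells. KO libraries were below WT in all 3 states, but Mllt10 fell past the threshold only in Th2, by 0.35 on the log2 scale (SE 0.09, adjusted p = 0.00334). On plain totals the naive libraries overlapped, at 126.9 and 131.4 CPM in KO and 127.2 and 139.7 CPM in WT. Without WT Th2 replicate 2 that adjusted p was 0.0652. In Th1 the value was -0.21 with an adjusted p of 0.0592, and a fit of the 4 Th1 libraries alone gave an adjusted p of 0.0139. Mllt10 shares exonic positions with Dnajc1 on the opposite strand, which stranded counting keeps apart.

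Among the AFF scaffolds, Aff3 fell most. Aff3 (chromosome 1, 38177326 to 38664955, − strand) had 2.89 and 2.91 CPM in KO Th2 cultures (33 and 27 counts), against 36.8 and 44.3 CPM in WT Th2 cultures (403 and 429 counts). It had 22.7 and 29.8 CPM in KO Th1 cultures, against 175 and 182 CPM in WT Th1 cultures, and 83.6 and 94.6 CPM in KO naive cells, against 99.7 and 107 CPM in WT naive cells. The genotypes were separated in all 3 states, widely in the cultures and narrowly in naive cells. Aff3 fell by 3.80 on the log2 scale in Th2 (SE 0.18, adjusted p = 5.45e-11) and had a log2 fold change of -2.77 in Th1 (SE 0.13, adjusted p = 1.02e-10), and its naive value of -0.21 had a 95% interval of -0.47 to 0.05. The log2 fold change ranked at percentile 0.849 of all genes tested in Th2 and 0.765 in Th1.

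Aff1 and Aff4 moved one way in Th1 cultures and the other way in Th2 cultures. Aff1 (chromosome 5, 103692374 to 103855322, + strand) had 65.3 and 69.6 CPM in KO Th1 cultures, against 121 and 110.2 CPM in WT Th1 cultures. In Th2 cultures it had 135 and 121 CPM in KO, against 93.5 and 83.0 CPM in WT, and in naive cells 154 and 166 CPM in KO, against 213 and 224 CPM in WT. No libraries overlapped between genotypes, with KO below WT in naive and Th1 samples and above it in Th2. Aff1 fell by 0.45 on the log2 scale in naive cells (SE 0.10, adjusted p = 0.00271) and had a log2 fold change of -0.78 in Th1 (SE 0.10, adjusted p = 7.89e-06), and rose by 0.53 in Th2 (SE 0.10, adjusted p = 0.000235).

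Aff4 (chromosome 11, 53350833 to 53421830, + strand) had 128 and 114 CPM in KO Th1 cultures, against 169 and 173 CPM in WT Th1 cultures. It had 464 and 392 CPM in KO Th2 and 318 and 286 CPM in WT Th2 cultures, and 217 and 229 CPM in KO naive and 301 and 309 CPM in WT naive cells. The order of the genotypes was that of Aff1 in each state, again with no overlap. Aff4 fell by 0.45 in naive cells (SE 0.10, adjusted p = 0.00362) and had a log2 fold change of -0.50 in Th1 (SE 0.10, adjusted p = 0.000762), and rose by 0.50 in Th2 (SE 0.10, adjusted p = 0.000448), all on the log2 scale.

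The ELL factors rose or did not pass the test. Ell2 (chromosome 13, 75707484 to 75772356, + strand), known in mouse plasma cells for its part in making secreted immunoglobulin mRNA, had 20.7 and 14.4 CPM in KO naive cells, against 8.93 and 6.20 CPM in WT naive cells. It had 74.1 and 67.0 CPM in KO Th1 and 41.9 and 39.6 CPM in WT Th1 cultures, and 82.2 and 80.9 CPM in KO Th2 and 62.9 and 64.8 CPM in WT Th2 cultures. Every KO library was above every WT library of its state. Ell2 rose by 1.22 on the log2 scale in naive cells (SE 0.18, adjusted p = 0.000136), by 0.79 in Th1 (SE 0.14, adjusted p = 0.000161) and by 0.35 in Th2 (SE 0.13, adjusted p = 0.0360). The Th2 call of Ell2 was lost without any 1 of the 4 Th2 libraries: KO replicate 1 (adjusted p = 0.114), KO replicate 2 (adjusted p = 0.0839), WT replicate 1 (adjusted p = 0.117) or WT replicate 2 (adjusted p = 0.0908).

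Ell (chromosome 8, 70539675 to 70592858, + strand) had 102 and 93.7 CPM in KO Th2 cultures, against 61.6 and 57.0 CPM in WT Th2 cultures. It had 49.7 and 39.1 CPM in KO Th1 and 48.5 and 47.5 CPM in WT Th1 cultures, and 49.0 and 49.5 CPM in KO naive and 51.3 and 56.0 CPM in WT naive cells. KO and WT libraries were far apart in Th2, overlapped in Th1 and lay close together in naive cells. Ell rose by 0.72 on the log2 scale in Th2 (SE 0.11, adjusted p = 3.73e-05), and its 95% interval was -0.36 to 0.14 in Th1 and -0.38 to 0.13 in naive cells.

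The size of the KO effect differed between states for 3 to 8 members, depending on the pair of states. Between Th1 cultures and naive cells the effect differed for 3 of 10 members, all more negative in Th1 (Mllt3, Mllt6, Aff3), where 27.5% of all genes differed. Between Th2 cultures and naive cells it differed for 8 members, 4 more positive in Th2 (Mllt3, Aff1, Aff4, Ell) and 4 more negative (Dot1l, Mllt6, Aff3, Ell2), where 35.7% of all genes differed. Between Th1 and Th2 it differed for 5 members, 4 more negative in Th1 (Mllt3, Aff1, Aff4, Ell) and 1 less negative in Th1 (Aff3), where 46.2% of all genes differed. The Th1 effect minus the Th2 effect was -1.93 for Mllt3 (SE 0.17, adjusted p = 3.45e-07), -1.31 for Aff1 (SE 0.14, adjusted p = 1.84e-06) and 1.03 for Aff3 (SE 0.23, adjusted p = 0.00174), on the log2 scale. For Dot1l, Mllt1, Mllt6, Mllt10 and Ell2 that difference missed the threshold, with 95% intervals of -0.14 to 0.57, -0.17 to 0.66, -0.46 to 0.17, -0.14 to 0.42 and 0.01 to 0.87. With replicate as a block, the Ell2 difference of 0.44 was called (adjusted p = 0.0497).

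Some of these differences rested on single libraries. The Dot1l difference of Th2 from naive, -0.50 (adjusted p = 0.0206), was lost without KO Th2 replicate 2 (adjusted p = 0.0922), WT Th2 replicate 2 (0.109), KO naive replicate 2 (0.114) or WT naive replicate 1 (0.0880). The corresponding Ell2 difference, -0.87 (adjusted p = 0.00645), was lost without KO naive replicate 1 (adjusted p = 0.0580) or WT naive replicate 2 (0.0666). The Ell2 difference of Th1 from naive, -0.43 (adjusted p = 0.175), was called without KO naive replicate 2 (adjusted p = 0.0335).

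Inhibition of DOT1L in WT cells was read from SGC0946 against SGC0649, and 1 member passed the test, in 1 of the cultures. Under SGC0946 against SGC0649 in Th1 cultures, edgeR called 0 of 10 members, with 1 member (Ell2) at an unadjusted p under 0.05, and limma voom and DESeq2 also called 0; 0.467% of all genes were called. In Th2 cultures edgeR called 1 member lower (Aff3), where 7.96% of all genes were called in either direction. That fit held no block for replicate, and with replicate as a block Aff4 was also called there, higher (adjusted p = 0.0225). The median log2 fold change of the members was -0.0153 in Th1 and 0.000930 in Th2, against -0.00392 and 0.0101 over all genes.

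Aff3 had 21.2 and 18.7 CPM in Th2 cultures with SGC0946, against 42.2 and 40.6 CPM with SGC0649. In Th1 cultures it had 128 and 144 CPM with SGC0946, against 145 and 164 CPM with SGC0649. The libraries were separated in both cultures, by a small gap in Th1. Aff3 fell by 1.06 on the log2 scale in Th2 (SE 0.13, adjusted p = 0.000192), while the Th1 value was -0.19 (95% interval -0.44 to 0.07). The Th2 call held without each library in turn, with adjusted p of 0.000476 to 0.00395, and was lost when the 4 libraries were fitted alone (adjusted p = 0.0777). The Aff3 inhibitor effect in Th1 minus that in Th2 was 0.87 (SE 0.18, adjusted p = 0.0379), the 1 member called there, where 0.520% of all genes were called in either direction. That difference was lost without either library of the Th1 SGC0946 group (adjusted p = 0.0670 and 0.166), the Th1 SGC0649 group (adjusted p = 0.159 and 0.0750) or the Th2 SGC0946 group (adjusted p = 0.0719 and 0.146).

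Aff4 had 363 and 348 CPM in Th2 cultures with SGC0946, against 309 and 255 CPM with SGC0649. The SGC0946 libraries were higher without overlap, and the log2 fold change of Aff4 was 0.33 (95% interval 0.11 to 0.56) with an adjusted p of 0.0502. It was called higher with a block for replicate (adjusted p = 0.0225), under another scaling (adjusted p = 0.0446) and by DESeq2 (adjusted p = 0.0222), but not in a fit of the 4 libraries alone (adjusted p = 0.354). Over all settings with every library its adjusted p ran between 0.0222 and 0.354, and with 1 library left out between 0.0113 and 0.362. In Th1 cultures Aff4 had 162 and 159.8 CPM with SGC0946 and 159 and 149 CPM with SGC0649, with a log2 fold change of 0.06. Without the Th2 SGC0649 replicate 1 library, Aff4 (adjusted p = 0.0113) and Mllt3 (adjusted p = 0.0307) were both called higher. Dot1l itself had 139.9 and 154 CPM with SGC0946 and 154 and 146 CPM with SGC0649 in Th1, and 136 and 152 CPM with SGC0946 and 145 and 174 CPM with SGC0649 in Th2. Those libraries overlapped in both cultures, with 95% intervals of the Dot1l log2 fold change of -0.28 to 0.22 in Th1 and -0.40 to 0.10 in Th2.

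For Ell2 the values were 56.3 and 61.4 CPM with SGC0946 and 50.6 and 44.0 CPM with SGC0649 in Th1 cultures, and 70.5 and 66.1 CPM with SGC0946 and 63.7 and 73.5 CPM with SGC0649 in Th2 cultures. The libraries were separated in Th1 and overlapped in Th2. Its log2 fold change was 0.31 in Th1 (95% interval 0.01 to 0.62, adjusted p = 0.453) and -0.01 in Th2 (95% interval -0.31 to 0.29). The remaining 6 members had log2 fold changes between -0.26 (Mllt1, Th2) and 0.24 (Mllt10, Th2), and each missed the threshold in both cultures.

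Against cultures without compound, SGC0946 gave 0 calls among the members in Th1 by edgeR (3 at an unadjusted p under 0.05, 1 by limma voom and 1 by DESeq2), where 2.44% of all genes were called, and 2 lower calls in Th2 (Mllt6 and Aff3), where 9.57% of all genes were called higher and 9.39% lower. With replicate as a block, 2 members were called in Th1, Ell2 higher (log2 0.53, adjusted p = 0.0266) and Aff3 lower (log2 -0.40, adjusted p = 0.0233). Ell2 was the member called higher by limma voom (adjusted p = 0.0345) and DESeq2 (adjusted p = 0.0146). It had an adjusted p of 0.0522 in the main fit and 0.0469 under RLE scaling. SGC0649 gave 0 calls in Th1 and 0 in Th2 by edgeR, limma voom and DESeq2, with 1 member at an unadjusted p under 0.05 in each, where 0.0153% and 0.673% of all genes were called. These comparisons share their control libraries. Markers also moved with compound in Th2 cultures, and their part in the result was not tested. Mast-cell and basophil markers summed to 144 to 149 CPM with SGC0946, 75.7 to 119.7 CPM with SGC0649 and 34.3 to 44.1 CPM without compound, and cell-cycle genes to 2046 to 2256 CPM with SGC0946, 1424 to 2100.1 CPM with SGC0649 and 899 to 1234 CPM without compound. SGC0946 against no compound called 3 of 6 mast-cell and basophil markers and 2 of 5 cell-cycle genes higher and 2 of 6 handling-stress genes lower, while SGC0946 against SGC0649 called 0 of 6, 0 of 5 and 1 lower of 6. Mllt6 had 337 and 312 CPM with SGC0946, 379 and 324 CPM with SGC0649 and 436 and 431 CPM without compound in Th2, so that both compound groups lay below the cultures without compound. Its log2 fold change against no compound was -0.42 for SGC0946 (SE 0.10, adjusted p = 0.00927) and -0.30 for SGC0649 (SE 0.10, adjusted p = 0.115). The SGC0946 call of Mllt6 was lost without WT Th2 replicate 1 (adjusted p = 0.0662) or Th2 SGC0946 replicate 2 (adjusted p = 0.0815), and without Th2 SGC0649 replicate 1 the SGC0649 values of Mllt6 (adjusted p = 0.0230) and Mllt3 (adjusted p = 0.0198) were called lower.

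Deletion and inhibitor effects differed for 5 members in Th1 cultures, all more negative in the KO (Mllt3, Mllt6, Aff1, Aff3, Aff4), where 30.7% of all genes differed. With replicate as a block, Ell2 was also called, more positive in the KO (adjusted p = 0.0499). They differed for 6 members in Th2 cultures, where 32.0% of all genes differed: Aff1 and Ell were more positive and Dot1l, Mllt6, Mllt10 and Aff3 more negative in the KO. For Aff3 the KO effect minus the SGC0946 effect was -2.58 in Th1 (SE 0.17, adjusted p = 2.89e-08) and -2.74 in Th2 (SE 0.23, adjusted p = 2.91e-07), on the log2 scale. Mllt10 had a difference of -0.59 in Th2 (SE 0.13, adjusted p = 0.00190), since its log2 fold change was -0.35 in the KO and 0.24 under SGC0946. For Dot1l in Th2 the difference of -0.46 had an adjusted p of 0.0368, and this call was lost in a fit of the 8 libraries alone (adjusted p = 0.172), in the table of all 47729 genes (adjusted p = 0.0906) and without any 1 of 5 libraries: KO Th2 replicate 2 (adjusted p = 0.159), WT Th2 replicate 1 (0.0598), WT Th2 replicate 2 (0.171), Th2 SGC0649 replicate 1 (0.179) or Th2 SGC0946 replicate 2 (0.183).

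In WT cells some members also changed with culture. In Th1 cultures against naive cells, 2 members rose (Aff3, Ell2) and 3 fell (Mllt10, Aff1, Aff4), where 67.3% of all genes were called. In Th2 cultures against naive cells, 2 rose (Mllt3, Ell2) and 4 fell (Mllt1, Mllt6, Aff1, Aff3), where 71.9% were called. The members' median absolute log2 fold change was 0.21 in Th1 and 0.51 in Th2, against 0.69 and 0.80 over all genes. Ell2 had 41.9 and 39.6 CPM in WT Th1 cultures and 62.9 and 64.8 CPM in WT Th2 cultures, against 8.93 and 6.20 CPM in WT naive cells, a rise of 2.43 in Th1 (SE 0.17, adjusted p = 1.74e-09) and 3.08 in Th2 (SE 0.17, adjusted p = 4.76e-11) on the log2 scale. All cultures stood above the naive cells. Mllt10 lost its Th1 call without WT Th1 replicate 1 (adjusted p = 0.109), WT Th1 replicate 2 (adjusted p = 0.101) or WT naive replicate 2 (adjusted p = 0.247), and without the filter on low counts (adjusted p = 0.0521). Mllt1 lost its Th2 call without WT Th2 replicate 1 (adjusted p = 0.0645) or WT naive replicate 2 (adjusted p = 0.108).

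WT Th1 against WT Th2 cultures split the family. Aff3, Mllt6 and Aff1 were higher in Th1 and Mllt3, Mllt10, Aff4, Ell and Ell2 lower, 8 of 10 members against 53.3% of all genes. With replicate as a block, Mllt1 was also called, higher in Th1 (log2 0.31, adjusted p = 0.0157). Aff3, at 175 and 182 CPM in WT Th1 and 36.8 and 44.3 CPM in WT Th2 cultures, was higher in Th1 by 2.14 on the log2 scale (SE 0.12, adjusted p = 4.42e-10). Mllt3, at 142 and 140.4 CPM in WT Th1 and 287 and 286 CPM in WT Th2 cultures, was lower in Th1 by 1.02 (log2 fold change -1.02, SE 0.12, adjusted p = 2.17e-06), and Aff4 had a log2 fold change of -0.82 (SE 0.10, adjusted p = 3.60e-06). The Aff1 call was lost without WT Th2 replicate 2 (adjusted p = 0.0539), and Ell missed the threshold without WT Th1 replicate 1 (adjusted p = 0.0996), WT Th1 replicate 2 (0.139) or WT Th2 replicate 1 (0.203).

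In KO cells 7 to 9 members differed between states. KO Th1 cultures against KO naive cells had 1 member higher (Ell2) and 6 lower (Mllt3, Mllt6, Mllt10, Aff1, Aff3, Aff4), where 71.0% of all genes were called, and Ell was called lower as well without KO Th1 replicate 1 (adjusted p = 0.0279). KO Th2 cultures against KO naive cells had 4 higher (Mllt3, Aff4, Ell, Ell2) and 5 lower (Dot1l, Mllt1, Mllt6, Aff1, Aff3), where 69.1% were called. Aff3 was lower by 4.94 on the log2 scale there (log2 fold change -4.94, SE 0.17, adjusted p = 1.88e-13), at 2.89 and 2.91 CPM in KO Th2 cultures, against 83.6 and 94.6 CPM in KO naive cells. The Aff1 call of that comparison was lost without KO Th2 replicate 2 (adjusted p = 0.0550) or KO naive replicate 2 (0.0719). KO Th1 against KO Th2 cultures had 4 higher (Dot1l, Mllt1, Mllt6, Aff3) and 5 lower (Mllt3, Mllt10, Aff1, Aff4, Ell), where 59.8% were called.

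Mllt3, at 43.7 and 44.3 CPM in KO Th1 cultures and 375 and 305 CPM in KO Th2 cultures, had a log2 fold change of -2.95 between them (SE 0.13, adjusted p = 2.34e-11). The corresponding WT value was -1.02, and the difference of these 2 values is the -1.93 given above. Weaker calls of KO Th1 against KO Th2 depended on single libraries. Dot1l lost its call without KO Th1 replicate 2 (adjusted p = 0.0675) or KO Th2 replicate 2 (adjusted p = 0.0604). Mllt10 lost it without KO Th1 replicate 2 (adjusted p = 0.0629) or either KO Th2 library (adjusted p = 0.0749 and 0.0603), and Mllt6 lost it without KO Th1 replicate 1 (adjusted p = 0.0547), KO Th1 replicate 2 (adjusted p = 0.354) or KO Th2 replicate 2 (adjusted p = 0.207). Mllt6 also had adjusted p of 0.0753 by DESeq2 and 0.0785 under another scaling.

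To set the genes against each other, CPM was divided by the exon length of each gene in kilobases. On this per-length scale Mllt6 was the most abundant member in all 10 groups, with group means of 37.4 to 91.4 CPM per kb. Ell2 was the least abundant in naive cells, at 4.80 ± 1.23 CPM per kb in KO and 2.07 ± 0.531 CPM per kb in WT (SD, n = 2 each). Dot1l lay between 11.8 and 20.8 CPM per kb and ranked from 3rd to 9th. In KO Th1 cultures Mllt3 ranked last, at 3.66 ± 0.0372 CPM per kb, just below Aff3 at 3.99 ± 0.765 CPM per kb, and in KO Th2 cultures Aff3 ranked last, at 0.441 ± 0.00265 CPM per kb (SD, n = 2 each).

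The 3 AFF genes together summed to less RNA in KO Th1 cultures than in WT Th1 cultures, and their shares differed between states. Their summed per-length level was 19.9 and 20.4 CPM per kb in KO Th1 cultures, against 51.9 and 52.1 CPM per kb in WT Th1 cultures. It was 49.2 and 42.3 CPM per kb in KO Th2 and 39.1 and 36.7 CPM per kb in WT Th2 cultures, and 45.2 and 49.0 CPM per kb in KO naive and 60.0 and 62.9 CPM per kb in WT naive cells. KO sums were thus below WT in naive and Th1 samples and above WT in Th2. Aff3 supplied 17.3% and 22.2% of the sum in KO Th1 cultures, against 51.2% and 53.0% in WT Th1 cultures. In Th2 cultures it supplied 0.892% and 1.05% in KO and 14.3% and 18.3% in WT, and with compound 8.26% and 7.81% under SGC0946 and 16.9% and 18.8% under SGC0649. Aff4 supplied 70.1% and 68.8% in KO Th2 and 60.4% and 57.8% in WT Th2 cultures.

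**Figure D3:**
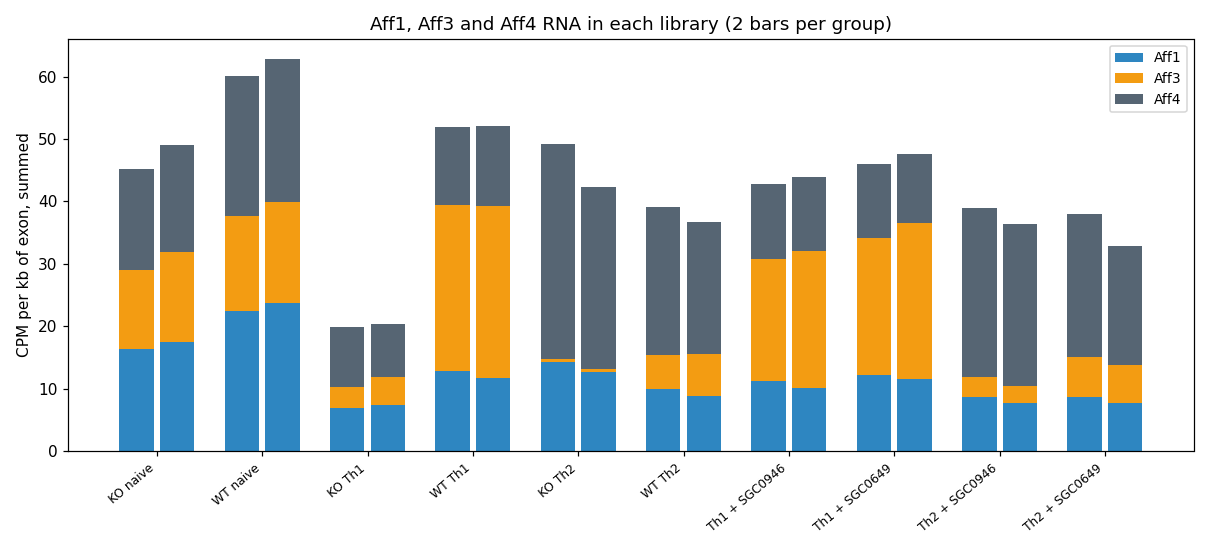
Summed RNA level of Aff1, Aff3 and Aff4 in each library, in CPM per kb of exon, with 2 bars per group and compound groups in WT cells. Aff3 holds 0.892% and 1.05% of the bars in KO Th2 cultures, 14.3% and 18.3% in WT Th2 cultures, and 51.2% and 53.0% in WT Th1 cultures.

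Ratios between related genes, taken within a library on the per-length scale, do not depend on the scaling between libraries. Aff3 over Aff4 had a mean log2 ratio of -6.17 ± 0.18 in KO Th2 cultures, against -1.87 ± 0.30 in WT Th2 cultures, and of -1.19 ± 0.40 in KO Th1, against 1.09 ± 0.01 in WT Th1 cultures (SD, n = 2 each). Mllt3 over Mllt1 was -2.50 ± 0.12 in KO Th1 and -0.73 ± 0.06 in WT Th1 cultures, and 0.99 ± 0.16 in KO Th2 and 0.60 ± 0.08 in WT Th2 cultures. The genotypes did not overlap in any of these 4 pairs of groups. Ell2 over Ell was -1.76 ± 0.38 in KO naive and -3.09 ± 0.46 in WT naive cells, 0.43 ± 0.14 in KO Th1 and -0.48 ± 0.03 in WT Th1 cultures, and -0.50 ± 0.07 in KO Th2 and -0.13 ± 0.11 in WT Th2 cultures. Mllt6 over Mllt10 was 1.39 ± 0.12 in KO Th1 and 1.97 ± 0.10 in WT Th1 cultures, and 0.90 ± 0.08 in KO Th2 and 1.20 ± 0.14 in WT Th2 cultures. In naive cells it was instead higher in KO, at 2.15 ± 0.04 against 1.95 ± 0.03 in WT. Aff3 over Aff4 was also higher in KO naive cells, at -0.29 ± 0.07 against -0.53 ± 0.04 in WT. Mllt3 over Mllt1 was lower in KO naive cells, at -1.30 ± 0.03 against -0.71 ± 0.16 in WT. The ratios are described without a test.

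**Figure D4:**
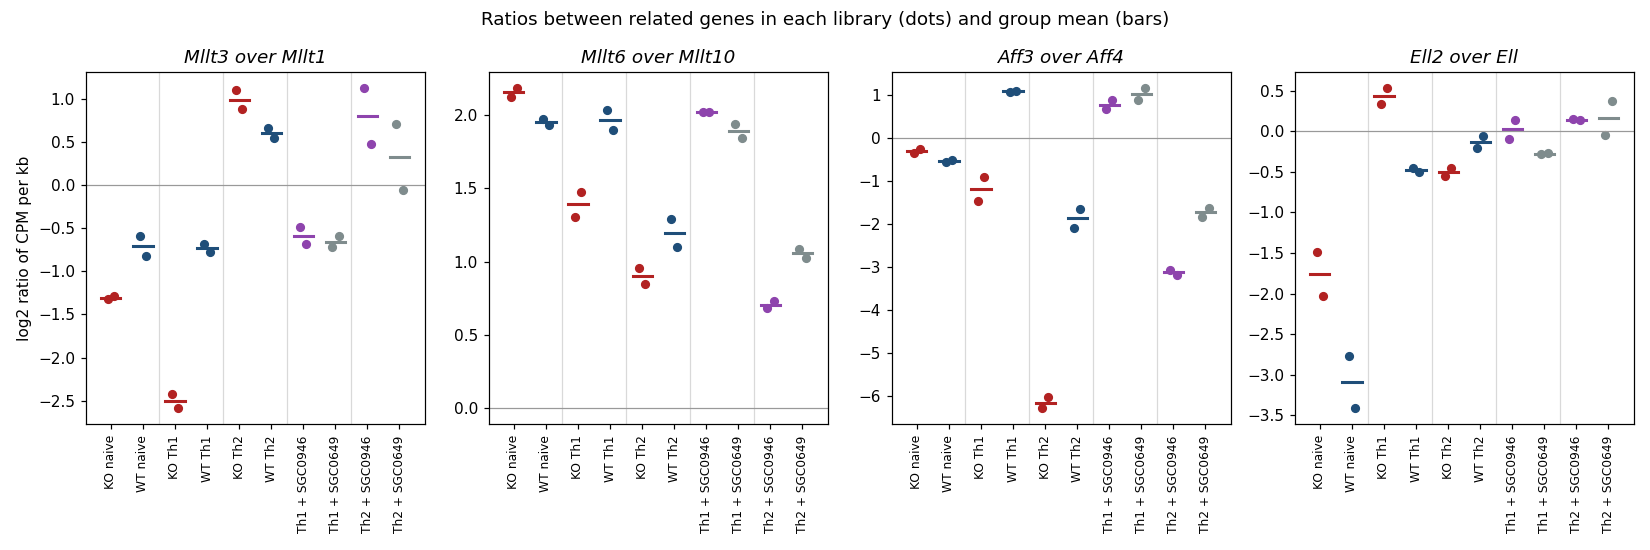
Log2 ratio of per-length levels of 4 pairs of related genes in each library (dots) with group means (bars, n = 2); 0 marks equal levels, and compound groups are WT cells. Aff3 over Aff4 is lowest in KO Th2 cultures, at -6.17, and highest in WT Th1 cultures, at 1.09.

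The genes whose log2 CPM followed a member most closely over the 10 group means were listed for 3 members, out of 11373 genes compared; the points share their libraries and scaling, and the correlations are descriptive. For Aff3 they included Ltb (Pearson r = 0.985) and Tnfrsf25 (r = 0.984), which encode lymphotoxin beta and a TNF-receptor family member. Both were lowest in KO Th2 cultures and highest in WT Th1 cultures, as Aff3 was. For Ell2 they were H2-Q10 (r = 0.987), Nedd4 (r = 0.986) and Rilpl1 (r = 0.986), all lowest in WT naive cells; H2-Q10 and Nedd4 were highest in KO Th1 cultures and Rilpl1 in WT Th2 cultures, whereas Ell2 was highest in KO Th2 cultures. For Dot1l they were Pick1 (r = 0.979), Lrrc42 (r = 0.952) and Kcnd1 (r = 0.938), all lowest in KO Th2 cultures; Pick1 and Lrrc42 were highest in WT Th1 cultures, as Dot1l was, and Kcnd1 in KO naive cells.

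Further elongation factors were read from 6 lists holding 41 genes, of which 39 were tested; Aff2 and Ell3 had too few counts. In KO against WT naive cells 0 of 39 rose and 8 fell, in Th1 cultures 5 rose and 18 fell, and in Th2 cultures 4 rose and 9 fell, against the 28.4%, 50.6% and 53.4% of all genes named above. Under SGC0946 against SGC0649, edgeR called 0 of 39 in Th1 and 1 lower in Th2. Of all genes 0.467% in Th1 and 7.96% in Th2 were called there in either direction. The median log2 fold change of the 39 was -0.08 in KO naive cells, -0.14 in KO Th1 and -0.13 in KO Th2 cultures.

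Of 7 genes of P-TEFb and its inhibitory 7SK particle, 3 fell in KO naive cells, 5 fell in KO Th1 cultures, and 1 rose and 2 fell in KO Th2 cultures. Hexim1, which holds P-TEFb inactive, averaged 162 ± 16.3 CPM in KO naive cells and 263 ± 0.554 CPM in WT naive cells, and Ccnt1, the cyclin of P-TEFb, 115 ± 2.09 CPM in KO and 181 ± 1.76 CPM in WT naive cells (SD, n = 2 each). Their log2 fold changes were -0.70 for Hexim1 (adjusted p = 0.000477) and -0.65 for Ccnt1 (adjusted p = 7.72e-06). In Th2 cultures Cdk9, the kinase itself, rose by 0.45 (SE 0.08, adjusted p = 0.000256) and Larp7 fell by 0.63 (SE 0.13, adjusted p = 0.000579).

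Among 6 tested partners of ELL and AFF proteins, 0 rose and 1 fell in KO naive cells, 2 rose and 2 fell in KO Th1, and 1 rose and 1 fell in KO Th2 cultures. Eaf1, which binds ELL proteins, averaged 255.6 ± 1.32 CPM in KO Th2 and 127 ± 5.03 CPM in WT Th2 cultures, a rise of 1.01 (SE 0.08, adjusted p = 1.34e-08), and rose by 0.70 in Th1 (SE 0.08, adjusted p = 1.89e-06). Ice1, a subunit of the little elongation complex, fell by 0.39 in KO naive cells (adjusted p = 0.00255) and had a log2 fold change of -0.26 in KO Th2 cultures (adjusted p = 0.0184), and was the 1 listed gene called under SGC0946, at 83.5 ± 2.57 CPM against 102 ± 4.05 CPM with SGC0649 (log2 fold change -0.29, adjusted p = 0.0499). That count of 1 was 0 under RLE scaling, without the filter on low counts, with limma voom, in a fit of the 4 libraries alone and without any 1 of the 4 libraries.

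The PAF1 complex, which travels with elongating polymerase, had 1 of 6 genes lower in KO naive cells, 1 lower in KO Th1, and 2 higher and 2 lower in KO Th2 cultures. Its member Rtf1 fell by 0.27 in naive cells (adjusted p = 0.00859) and had a log2 fold change of -0.32 in Th1 (adjusted p = 0.00118) and rose by 0.29 in Th2 (adjusted p = 0.00226). Of 11 pausing and elongation factors, 1 fell in KO naive cells, 3 rose and 4 fell in KO Th1, and 3 fell in KO Th2 cultures. Supt4a, a subunit of the elongation factor DSIF, averaged 27.1 ± 0.247 CPM in KO Th1 and 52.1 ± 2.32 CPM in WT Th1 cultures, a fall with a log2 fold change of -0.94 (SE 0.13, adjusted p = 2.04e-05). Ssrp1, a subunit of the histone chaperone FACT, had a log2 fold change of -0.83 in KO Th2 cultures (SE 0.09, adjusted p = 1.11e-06).

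Of 5 genes for H2B ubiquitination, a mark known to stimulate DOT1L, 2 fell in KO naive cells, 4 in KO Th1 and 1 in KO Th2 cultures, and none rose. Without any 1 of the 4 libraries the Th2 count was 0 and the naive count 0 or 1, and the naive count of pausing and elongation factors given above was 0. Rnf40, part of the H2B ubiquitin ligase, fell by 0.23 in naive cells (adjusted p = 0.0428) and had a log2 fold change of -0.46 in Th1 (adjusted p = 0.000244). Of 4 genes of the MLL and menin group, 2 fell in KO Th1 cultures and none were called in KO naive or KO Th2 samples. Kmt2a, the MLL gene that is fused to AFF and MLLT genes in human leukaemia, averaged 369.8 ± 54.6 CPM in KO Th1 and 541 ± 18.8 CPM in WT Th1 cultures (log2 fold change -0.55, SE 0.12, adjusted p = 0.000859).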

How the data were processed

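CD4+ T-cell RNA was measured in 20 libraries of 10 groups, taken from the labels, the naive state being given by the series' design text. The authors deposited raw read counts per gene and the exon length of each gene in bases, an annotation value of another unit. Per the file headers, featureCounts 1.5.3 counted reads with strand setting 2 on Ensembl 84 genes of GRCm38. Multimapping and ambiguous reads were not counted and duplicates were kept. The aligner is not given in the sources used here. The second SGC0946 library of each culture carries the number of the first in its column name and was matched to its title by the S number.

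Between 49.5% and 56.3% of reads were assigned per library. Counts were fitted in edgeR 4.0.16 (R 4.3.3) by the robust quasi-likelihood F test over all 20 libraries, with TMM scaling and filterByExpr (minimum count 10, total 15), with Benjamini-Hochberg adjustment over the 13072 genes tested. The common biological coefficient of variation was 0.0963, and the estimate of each gene's spread was shared by all groups. The spread between replicates differed by group. Over genes averaging at least 10 CPM, the SD of the log2 difference was 0.122 in WT Th1, the lowest. It was 0.304 in KO Th2 and 0.337 in Th2 SGC0649 libraries, the highest. The p-values of such groups thus rest on a spread drawn from all groups. SE is the log2 fold change divided by the square root of F, and 95% intervals use 10 residual degrees of freedom. The F test adds prior degrees of freedom to these, so the intervals are somewhat wider than its p-values imply. Likeness was Pearson's r on log2(CPM + 0.5) over genes whose mean log2 CPM reached 1.

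Alternatives were RLE scaling, no filter, limma 3.58.1 voom, DESeq2 1.42.0, the table of all 47729 genes, the libraries of a contrast alone, each library left out, and the replicate number as a block. Replicate differences correlated by 0.207 to 0.717 over all 15 pairs of WT cultures and by 0.147 to 0.335 over the 3 KO and WT pairs of a state, while all 45 pairs of groups ran from -0.136 to 0.717. The numbers were therefore taken to pair libraries within those comparisons, from the data and not from the labels. The main fit, which gave the calls of the report, held no term for this pairing. Calls of members that changed with the block are given beside the results. All 10 members are named whatever their result, with up to 2 called genes per pathway list and comparison of largest absolute change and, for Dot1l, Aff3 and Ell2, the 3 genes most like each, of which 1 is not reported here. The members and lists were chosen with earlier results of these data known.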

Additional observations from a re-analysis of the deposited data

Results flagged for a closer look

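These results are listed because the effect of 1 contrast differed between states or cultures by a test of the difference itself, in edgeR's quasi-likelihood F test with Benjamini-Hochberg adjustment over all genes tested. Groups of 2 libraries allow no check for a library standing apart within its group. All values are differences of log2 fold changes.

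The KO effect in Th1 cultures minus that in naive cells was -1.29 for Mllt3, -0.85 for Mllt6 and -2.55 for Aff3. The KO effect in Th2 cultures minus that in naive cells was -0.50 for Dot1l, 0.63 for Mllt3, -0.70 for Mllt6, 0.98 for Aff1, -3.59 for Aff3, 0.95 for Aff4, 0.84 for Ell and -0.87 for Ell2. The KO effect in Th1 cultures minus that in Th2 cultures was -1.93 for Mllt3, -1.31 for Aff1, 1.03 for Aff3, -0.999 for Aff4 and -0.83 for Ell. The SGC0946 effect in Th1 cultures minus that in Th2 cultures was 0.87 for Aff3. Marker lists of other cell types, handling stress and the cell cycle differed between KO and WT libraries in these states, and their part in these differences was not tested.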

How the results depend on the processing

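Of 255 recomputed counts of called members, 231 stayed within 1.5 times the value reported and 24 did not, all in comparisons with a compound. The counts reported in those comparisons were 0, 1 or 2. By this rule any change of a count of 0 or 1, and any loss from a count of 2, falls outside. The counts reported for KO against WT were 4, 7 and 8, where a change of 1 stays inside. The split therefore does not show which comparisons were more stable. For SGC0946 against SGC0649 in Th2 the count was 2 under RLE scaling, no filter, limma voom, DESeq2 and the replicate block, and 0 with the libraries of the contrast alone. For SGC0946 against no compound in Th1 it was 1 under RLE scaling, limma voom and DESeq2, 2 with no filter and with the replicate block, and 3 with the contrast alone. With the contrast alone it was 1 for SGC0649 against no compound in Th1 and 0 for the SGC0946 effect in Th1 minus Th2. Leaving out 1 library gave 1 to 3 for SGC0946 against SGC0649 in Th2, 1 to 2 for SGC0946 against no compound in Th2, 0 to 2 for SGC0649 against no compound in Th2 and 0 to 1 for the SGC0946 effect in Th1 minus Th2. Beyond the calls named beside the results, the replicate block changed no other call of a member.

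Of 2550 recomputed log2 fold changes of members, 2382 kept direction and side of the threshold, 58 lost the call, 41 gained one and 69 changed sign, and 0 of the 69 belonged to a value called in the report. Mllt10 for SGC0946 against no compound in Th1 became 0.00614 (RLE), 0.00521 (all 47729 genes), 0.00157 (contrast alone) and 0.00625 (DESeq2). Ell became -0.000402 (no filter) for the KO effect in Th1 minus naive, and 0.00699 (no filter), 0.0383 (all genes), 0.000194 (contrast alone) and 0.00139 (limma voom) for the SGC0946 effect in Th1 minus Th2. For SGC0946 against SGC0649 in Th2, Aff1 became -0.0247 and Ell -0.0157 with all genes, and -0.0181 and -0.00938 with the contrast alone. Sign changes on leaving out 1 library were as follows, as lowest and highest values. For KO Th1 against KO naive, these ranges were Ell -0.34 to 0.00586. For KO Th2 against KO naive, these ranges were Mllt10 -0.0905 to 0.00775. For KO against WT in Th1, these ranges were Ell -0.30 to 0.0413, Mllt1 -0.0132 to 0.18. For KO against WT in naive, these ranges were Mllt6 -0.00503 to 0.13. For KO effect minus SGC0946 effect in Th1, these ranges were Ell -0.32 to 0.0203. For KO effect minus SGC0946 effect in Th2, these ranges were Mllt1 -0.0619 to 0.37, Mllt3 -0.14 to 0.25. For the KO effect in Th1 minus naive, these ranges were Aff4 -0.14 to 0.0284, Ell -0.18 to 0.16. For SGC0649 against no compound in Th1, these ranges were Aff1 -0.12 to 0.0179, Ell -0.10 to 0.11, Mllt10 -0.0731 to 0.0388, Mllt3 -0.0523 to 0.0989, Mllt6 -0.20 to 0.00680. For SGC0649 against no compound in Th2, these ranges were Aff3 -0.0903 to 0.17, Aff4 -0.23 to 0.0243, Dot1l -0.12 to 0.17, Ell2 -0.00923 to 0.22, Mllt1 -0.14 to 0.22. For SGC0946 against SGC0649 in Th1, these ranges were Dot1l -0.0930 to 0.0314, Ell -0.0800 to 0.13, Mllt10 -0.0477 to 0.0639. For SGC0946 against SGC0649 in Th2, these ranges were Aff1 -0.0863 to 0.0896, Ell -0.0798 to 0.11, Ell2 -0.12 to 0.10. For SGC0946 against no compound in Th1, these ranges were Ell -0.0359 to 0.0860, Mllt10 -0.0574 to 0.0364, Mllt6 -0.0210 to 0.11. For SGC0946 against no compound in Th2, these ranges were Mllt10 -0.00927 to 0.15, Mllt3 -0.14 to 0.0769. For the SGC0946 effect in Th1 minus Th2, these ranges were Dot1l -0.0282 to 0.26, Ell -0.0925 to 0.12, Mllt1 -0.0920 to 0.34. For WT Th1 against WT naive, these ranges were Mllt1 -0.22 to 0.00548. For WT Th2 against WT naive, these ranges were Aff4 -0.11 to 0.0625.

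Of 330 recomputed counts of called genes in the pathway lists, 284 stayed within 1.5 times the value reported and 46 did not. CPM on plain totals moved 29 of 100 group levels by more than the spread between replicates, by at most 12.2%. With 2 libraries per group, a fit without 1 library assumes that the remaining one varies like the other groups. Aff3 in KO Th2 cultures rests on 33 and 27 counts, which limits the precision of its fold change there.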
